A study of Mus musculus with 15 samples.

Results

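The genes examined here are 10 of the 23412 genes counted in these RNA-seq data and stand for the integrated stress response. They were taken by symbol from a fixed list and are the transcription factors Atf4, Atf5, Ddit3, Cebpb and Nupr1, the pseudokinase gene Trib3, the enzymes Asns and Chac1, the lipoprotein receptor gene Vldlr and the endoplasmic reticulum gene Herpud1. All 10 were found in every library and passed the filter on low counts, which left 14508 genes to test. The cells were mouse embryonic stem cells (mESCs) of the male line v6.5, grown on gelatin. Their cohesin subunits STAG1 and STAG2 were removed by knockout or, for STAG1, lowered by siRNA, singly or together. The 5 conditions were wild-type cells with siGLO, a non-targeting transfection control, wild-type cells with siStag1, an siRNA pool against Stag1, Stag1-/- cells with siGLO, Stag2-/- cells with siGLO, and Stag2-/- cells with siStag1. All cells, controls included, were transfected with 50 nM of siRNA and harvested after 48 h, and poly-A RNA was sequenced from 3 replicates per condition. Each knockout was 1 CRISPR clone, so a property of the clone and the loss of the gene cannot be told apart. The p-values measure the spread between replicates of 1 clone or line.

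The integrated stress response slows general translation through phosphorylation of the initiation factor eIF2α by kinases that sense amino acid shortage, unfolded protein, double-stranded RNA or mitochondrial and heme stress. The mRNA of Atf4 is then translated more efficiently, and the ATF4 protein binds CARE sites (CCAAT/enhancer binding protein and ATF response elements) in genes for amino acid synthesis, amino acid transport, tRNA charging and redox balance. Prolonged signalling raises Ddit3, which encodes CHOP. Because ATF4 is controlled mainly at translation, a count of Atf4 mRNA does not measure ATF4 protein.

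Promoter sequences are shown first, because a shared CARE site is what several of these genes are known for. The core CARE letters TGATGNAA were searched on both strands in the 250 bases before each RefSeq transcription start (GRCm38.p6). Within these windows 5 of the 10 genes held a match, namely Chac1, Asns, Nupr1, Vldlr and Herpud1, against 2.43% of the 10611 tested genes that had a window. The stretches below read 5′ to 3′ along the gene's own strand, and capitals mark the fixed letters of the match, which on the opposite strand are those of its reverse complement.
Chac1: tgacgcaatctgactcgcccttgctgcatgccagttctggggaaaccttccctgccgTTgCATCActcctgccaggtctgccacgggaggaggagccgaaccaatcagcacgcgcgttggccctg
Herpud1: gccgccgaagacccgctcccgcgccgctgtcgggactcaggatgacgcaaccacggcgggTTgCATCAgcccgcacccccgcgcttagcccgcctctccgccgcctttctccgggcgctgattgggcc
Asns: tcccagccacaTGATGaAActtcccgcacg
Nupr1: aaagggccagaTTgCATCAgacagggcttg
Vldlr: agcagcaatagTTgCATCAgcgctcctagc
The Chac1 stretch lies at chr2:119350992-119351116 on the plus strand, with the match 193 bases before the start. The Herpud1 stretch lies at chr8:94386257-94386384 on the plus strand, with the match 112 bases before the start. The sites of Asns (chr6:7693214-7693243, minus strand), Nupr1 (chr7:126625562-126625591, minus strand) and Vldlr (chr19:27216809-27216838, plus strand) fall in annotated exons, so only 30 bases of each are printed. Neither the endoplasmic reticulum stress element (ERSE) nor the cAMP response element TGACGTCA, both searched on either strand, was matched in any of the 10 sets of windows, against 0.16% and 2.98% of tested genes. The window of Herpud1 ended inside a stretch that carried every ERSE letter but the last. The search therefore cannot decide whether Herpud1 has this element at its start, and no other form of the ERSE was searched. A match is a description of letters only, and no binding was measured.

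Library depth ranged from 14982560 to 19070126 counts on genes. The siRNA lowered Stag1 in both backgrounds, by 2.28 ± 0.14 (SE) on the log2 scale in wild-type cells (adjusted p = 2.58e-07, edgeR) and by 1.53 ± 0.14 in Stag2-/- cells (adjusted p = 6.67e-06, edgeR), and Stag2 was lower in the Stag2-/- clone by 1.75 ± 0.12 (adjusted p = 4.34e-07, edgeR). Stag1 counts were not lower in the Stag1-/- clone (log2 fold change -0.09 ± 0.13), whose small in-frame deletion leaves the transcript in place, so transcript counts do not check that genotype. The genes that mark embryonic stem cells were present in every library, with a summed normalized count of 107400 to 112200 in wild type siGLO and 63890 to 83040 in Stag2-/- siStag1. Same-numbered replicates of different conditions resembled each other, and the effect of this on the members is described near the end.

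Per length, Asns was the most abundant of these mRNAs. In wild type siGLO cells, CPM (counts scaled to library size) per kilobase of exon were 175 for Asns, 57.6 for Atf4, 12.8 for Atf5, 11.7 for Trib3, 7.6 for Nupr1, 5.53 for Herpud1, 4.85 for Chac1, 4.55 for Ddit3, 2.85 for Cebpb and 1.09 for Vldlr. In this order the libraries of neighbouring genes overlapped for Atf5 with Trib3, Herpud1 with Chac1, Chac1 with Ddit3 and Ddit3 with Cebpb. In Stag2-/- siStag1 cells Asns was at 74.5 and Atf4 at 59.0 on the same scale, and the libraries of these 2 genes overlapped.

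Against wild type siGLO, the members called at an adjusted p under 0.1 (edgeR's quasi-likelihood test with Benjamini-Hochberg adjustment over all genes tested) were few in the single knockouts and more numerous when both STAG proteins were depleted. In Stag1-/- cells 2 of 10 were called, Cebpb higher and Herpud1 lower, against 20.0% of all genes tested (10.1% higher and 9.93% lower). In Stag2-/- cells 2 of 10 were called, Asns and Ddit3, both lower, against 28.3% of all genes (14.4% lower). After Stag1 knockdown in wild-type cells none of the 10 was called by edgeR or DESeq2, and none had an unadjusted p under 0.05, against 0.248% of all genes called. In Stag2-/- siStag1 cells 5 of 10 were called, with Asns, Nupr1, Ddit3 and Vldlr lower and Cebpb higher, against 43.9% of all genes (21.3% lower and 22.6% higher). These shares lay near those of all genes, so in this fit the number of calls sets the 10 genes apart in none of these conditions. The count depended on the fit. With only the Stag1-/- and wild type siGLO libraries, 5 of 10 were called in Stag1-/- against 20.5% of all genes. Atf4, Atf5, Trib3 and Chac1 were called in none of the comparisons. The 4 comparisons share their wild type siGLO libraries.

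**Figure D1:**
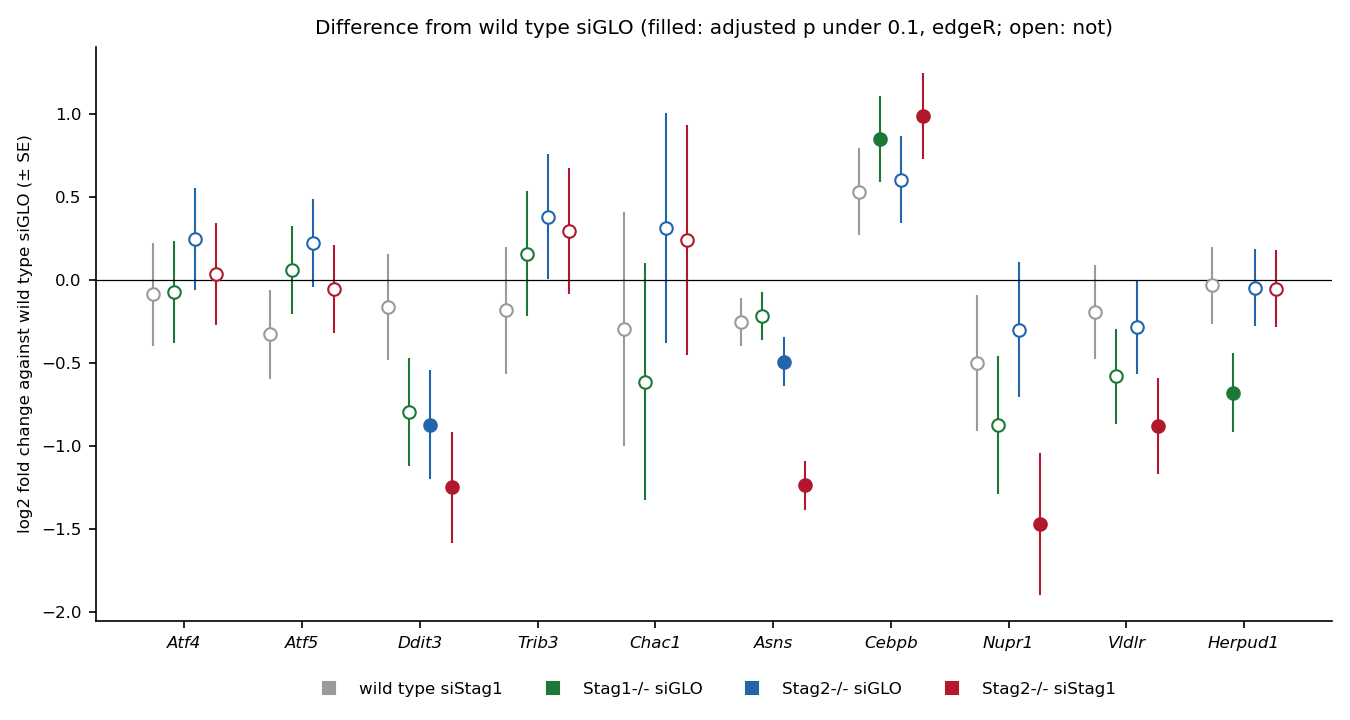
Log2 fold change of each gene against wild type siGLO (vertical axis, ± SE from the edgeR fit) in the 4 other conditions, with filled points for an adjusted p under 0.1. Filled points lie at 0.85 and 0.99 for Cebpb and between -0.49 and -1.47 for the genes called lower, and Atf4, Atf5, Trib3 and Chac1 have only open points.

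The median log2 fold change of the 10 genes was -0.40 in Stag1-/-, 0.09 in Stag2-/-, -0.19 in wild type siStag1 and -0.05 in Stag2-/- siStag1, where the median over all genes tested stayed between -0.01 and 0.01. The 3 libraries of a condition lay wholly above or below those of wild type siGLO for 4 members in Stag1-/- (31.7% of all genes), 3 in Stag2-/- (35.7%), 1 in wild type siStag1 (15.5%) and 5 in Stag2-/- siStag1 (47.3%). In Stag1-/- a fit blocked on the replicate number, which pairs same-numbered cultures, called 4 members against 30.6% of all genes and added Ddit3 (adjusted p = 0.0326) and Nupr1 (adjusted p = 0.0746). The same block called 3 members in Stag2-/- (39.4% of all genes), 0 in wild type siStag1 (1.63%) and 5 in Stag2-/- siStag1 (53.7%). DESeq2 called 2 members in Stag1-/- (19.4%), 2 in Stag2-/- (26.6%), 0 in wild type siStag1 (0.936%) and 5 in Stag2-/- siStag1 (39.4%). Without the 5 libraries of replicate 1, an alternative chosen after seeing the data, the calls numbered 3 in Stag1-/- (18.5% of all genes in that fit), 4 in Stag2-/- (34.5%), 0 in wild type siStag1 (0.447%) and 5 in Stag2-/- siStag1 (46.9%).

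**Figure D2:**
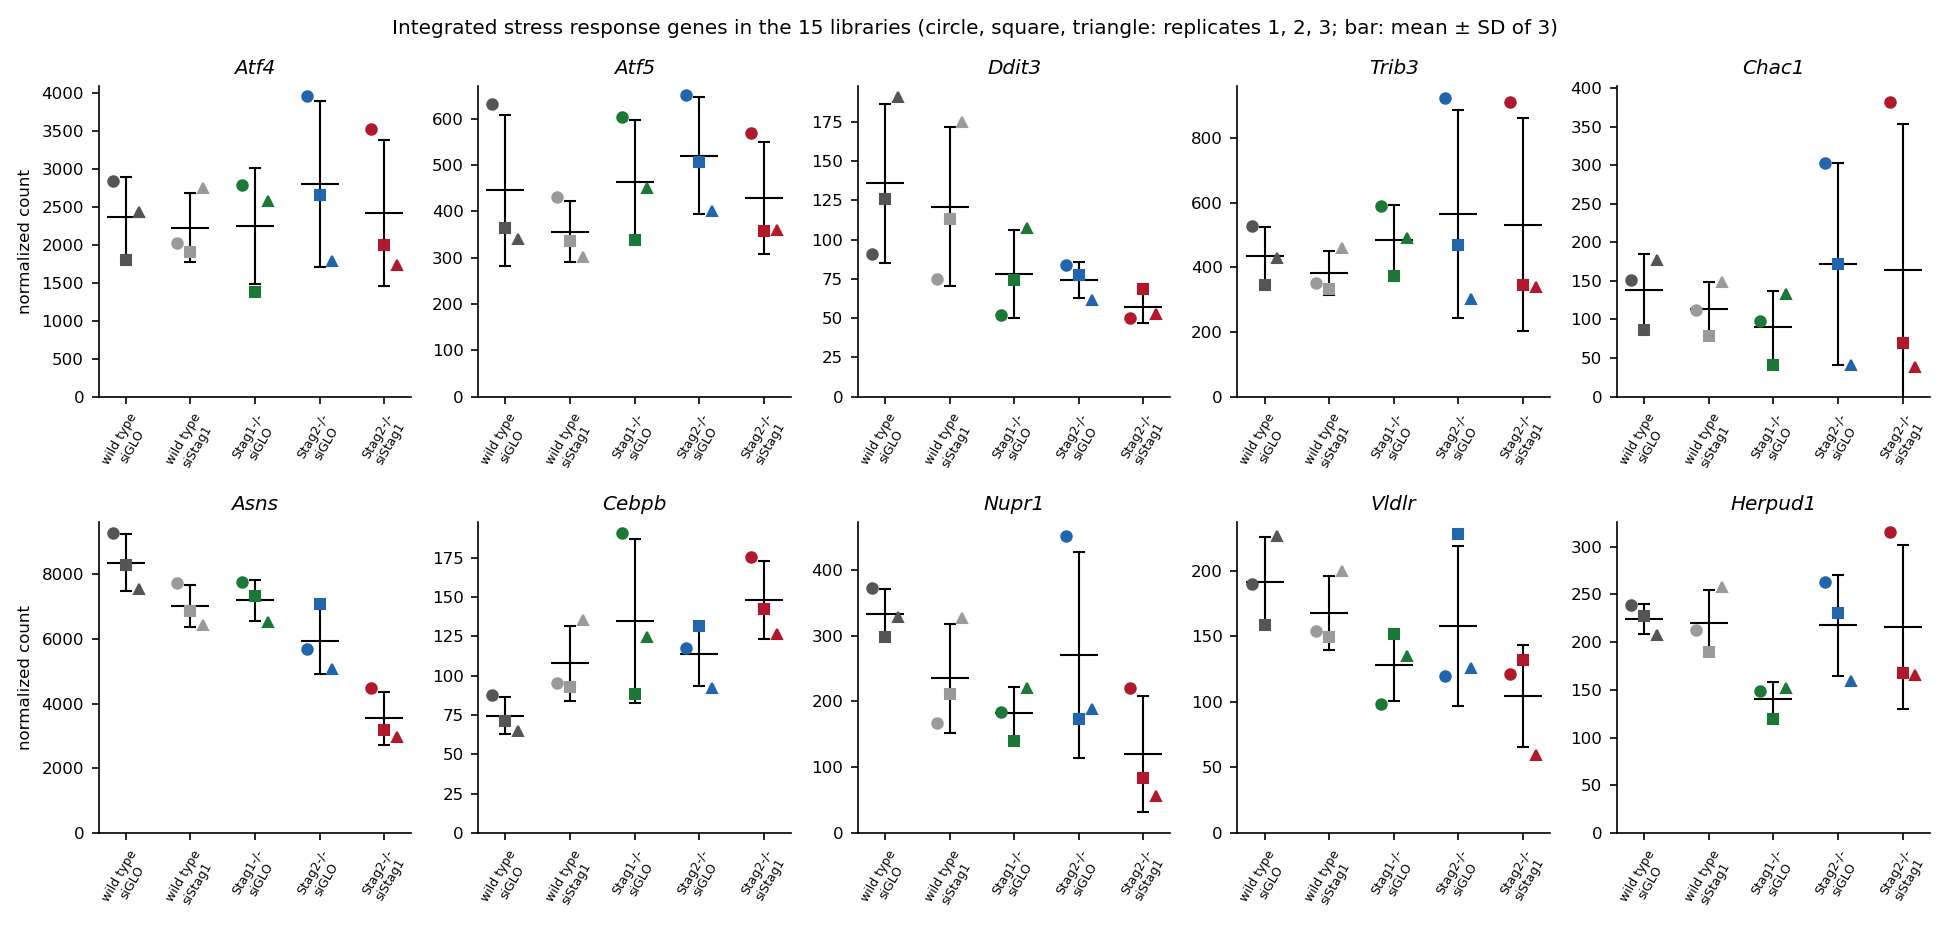
Normalized count of each gene (vertical axis, from 0) in the 15 libraries by condition, with circles, squares and triangles for replicates 1, 2 and 3 and bars for the mean ± SD of 3. The 3 Stag2-/- siStag1 libraries of Asns lie between 2965 and 4479, below all 12 others, whereas those of Chac1 span 38.4 to 382.

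Atf4 encodes the transcription factor at the centre of the response and lies on chromosome 15. Its normalized counts (counts scaled to a common library size) were 2849, 1803 and 2438 in replicates 1 to 3 of wild type siGLO, 2026, 1903 and 2751 in wild type siStag1, and 2792, 1379 and 2582 in Stag1-/-. They were 3968, 2661 and 1794 in Stag2-/- and 3531, 1999 and 1735 in Stag2-/- siStag1. The 5 conditions overlapped throughout, and the highest library exceeded the lowest of the same condition by 1.45 to 2.21 times. The log2 fold changes against wild type siGLO ran from -0.09 ± 0.31 (SE) in wild type siStag1 to 0.25 ± 0.31 in Stag2-/-, none of them called.

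Atf5, a relative of Atf4 whose mRNA is also controlled at translation, was at 632, 363 and 339.7 in wild type siGLO and at 430.1, 336 and 302 in wild type siStag1. The values were 602, 339 and 450.2 in Stag1-/-, 652, 506 and 401 in Stag2-/-, and 569, 358 and 359 in Stag2-/- siStag1. Replicate 1 was the highest library of all 5 conditions, and the conditions overlapped. Exons of Atf5 share 164 bases with those of Nup62 and Il4i1 on the opposite strand, but none of the 1972 stretches of the 150-base read length in Atf5 transcripts was shared with another gene. How reads that partly overlap were counted, and whether strand was used, is not given in the sources used here. Across the 15 libraries log2 Atf5 and Nup62 levels had r = 0.954, as a description.

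Ddit3, which encodes the pro-apoptotic factor CHOP, was called lower in both Stag2-/- conditions. Its normalized counts were 90.7, 126 and 191 in wild type siGLO, 83.6, 77.6 and 61.2 in Stag2-/-, and 50.3, 68.6 and 52.6 in Stag2-/- siStag1. All 6 Stag2-/- libraries lay below the 3 controls. It fell by 0.87 ± 0.33 (SE) on the log2 scale in Stag2-/- (adjusted p = 0.0717, edgeR) and by 1.25 ± 0.33 in Stag2-/- siStag1 (adjusted p = 0.00821, edgeR). In Stag1-/- the counts were 52.2, 74 and 108, overlapping the controls, with a log2 fold change of -0.80 ± 0.33 (adjusted p = 0.119, edgeR, and 0.0326 with the replicate block). The direct difference of Stag1-/- from Stag2-/- was 0.08 ± 0.34 (adjusted p = 0.903, edgeR). Wild type siStag1, at 74.6, 113 and 175, also overlapped them. The Stag2-/- call was lost without replicate 2 or 3 of either group (adjusted p up to 0.32 over 14 alternatives, edgeR and DESeq2). Stretches of 68 exon bases overlap the synthetase gene Mars on the opposite strand, and in deviations from condition means the 2 genes had r = -0.458 over 15 libraries.

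Cebpb encodes C/EBPβ, a bZIP factor that partners ATF4 and CHOP, and it was the one member called higher. Cebpb was at 87.9, 71.2 and 64.8 in wild type siGLO, 95.6, 92.9 and 135 in wild type siStag1, 191, 88.6 and 125 in Stag1-/-, 117, 132 and 91.8 in Stag2-/-, and 175, 142 and 126 in Stag2-/- siStag1. Every one of the 12 other libraries exceeded the highest control. Cebpb rose by 0.85 ± 0.26 (SE) on the log2 scale in Stag1-/- (adjusted p = 0.0386, edgeR) and by 0.99 ± 0.26 in Stag2-/- siStag1 (adjusted p = 0.00728, edgeR). The values in Stag2-/- and wild type siStag1 were 0.60 ± 0.26 (adjusted p = 0.116, edgeR) and 0.53 ± 0.26 (adjusted p = 0.81, edgeR). For Stag2-/- 5 of 14 alternatives called it, with adjusted p from 0.0588 with the replicate block to 0.296 (edgeR and DESeq2), and for wild type siStag1 none did. The Stag1-/- call was lost without wild type siGLO replicate 2 or 3 or Stag1-/- replicate 1, with adjusted p from 0.0131 to 0.233 over 14 alternatives (edgeR and DESeq2). Cebpb is a single-exon gene, and 312 of its 1504 bases overlap Tmem189 on the opposite strand. Of its 1355 stretches of the read length, 164 were shared with Tmem189, and reads from these cannot be told apart without strand. Over the 15 libraries Cebpb and Tmem189 had r = 0.576 in levels and 0.084 in deviations from condition means.

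Nupr1, a stress-induced chromatin-associated protein gene, had the widest range of condition means. Its normalized counts were 372, 298 and 328 in wild type siGLO, 167, 212 and 327 in wild type siStag1, 184, 140.2 and 221 in Stag1-/-, 451, 174 and 188 in Stag2-/-, and 221, 83.2 and 55.6 in Stag2-/- siStag1. The Stag1-/- and Stag2-/- siStag1 libraries lay below every control, whereas Stag2-/- replicate 1 was above them all. Nupr1 fell by 1.47 ± 0.43 (SE) on the log2 scale in Stag2-/- siStag1 (adjusted p = 0.0133, edgeR), a level 2.77-fold lower. Without Stag2-/- siStag1 replicate 1 the log2 fold change was -2.26, and without all replicate 1 libraries it was -2.19. In Stag1-/- the log2 fold change was -0.87 ± 0.41 (adjusted p = 0.183, edgeR). It was called in 3 of 14 alternatives, with adjusted p from 0.00313 to 0.386 (edgeR and DESeq2). In Stag2-/- the value was -0.30 ± 0.41 (adjusted p = 0.643, edgeR), and without the replicate 1 libraries it was -0.81 (adjusted p = 0.0225, edgeR).

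Asns encodes asparagine synthetase, a classical ATF4 target induced by amino acid shortage, and it carried the largest contrast between conditions relative to its replicate spread. Its normalized counts were 9265, 8264 and 7529 in wild type siGLO, 7733, 6870 and 6438 in wild type siStag1, and 7755, 7310 and 6512 in Stag1-/-. They were 5681, 7086 and 5060 in Stag2-/- and 4479, 3194 and 2965 in Stag2-/- siStag1. The 2 Stag2-/- conditions lay below all controls, and the dual depletion lay below every other library. Asns fell by 0.49 ± 0.15 (SE) on the log2 scale in Stag2-/- (adjusted p = 0.0276, edgeR) and by 1.24 ± 0.15 in Stag2-/- siStag1 (adjusted p = 1.22e-05, edgeR), a level 2.36-fold lower. The Stag2-/- call was lost without Stag2-/- replicate 3 (adjusted p = 0.11, edgeR), the highest of its 14 alternatives, of which the lowest gave 0.00169.

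Trib3, which encodes a pseudokinase that restrains ATF4 and CHOP, was at 527, 346 and 428 in wild type siGLO, 352, 334 and 460.4 in wild type siStag1, and 591, 374 and 490 in Stag1-/-. The values were 925, 469 and 303 in Stag2-/- and 913, 344 and 339 in Stag2-/- siStag1. Replicate 1 of both Stag2-/- conditions stood above every other library, and their other replicates lay among the controls or below them. The log2 fold changes were 0.38 ± 0.38 (SE) and 0.30 ± 0.38, neither of them called.

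Chac1, whose product degrades glutathione, was the most variable member. Across its libraries it had normalized counts of 151, 86.4 and 177 in wild type siGLO, 112, 78.2 and 149 in wild type siStag1, 97.4, 40.9 and 133 in Stag1-/-, 303, 172 and 41.2 in Stag2-/-, and 382, 69.7 and 38.4 in Stag2-/- siStag1. Within the last of these conditions the highest library exceeded the lowest 9.95 times, and none of the fold changes was called. For Stag2-/- siStag1 the log2 fold change was 0.24 ± 0.69 (SE), and without the replicate 1 libraries it was -1.31 (adjusted p = 0.103, edgeR; 0.103 to 0.997 over 14 alternatives).

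Vldlr, a lipoprotein receptor gene induced through ATF4, was the least abundant member per length. Its normalized counts were 189.8, 159 and 226 in wild type siGLO, 154, 149.9 and 200.2 in wild type siStag1, 98.4, 152 and 135 in Stag1-/-, 119.6, 228 and 126 in Stag2-/-, and 121, 132 and 59.7 in Stag2-/- siStag1. The Stag1-/- and the Stag2-/- siStag1 libraries lay below the controls. Vldlr fell by 0.88 ± 0.29 (SE) on the log2 scale in Stag2-/- siStag1 (adjusted p = 0.0267, edgeR), and this call was lost without Stag2-/- siStag1 replicate 3 (adjusted p = 0.117, edgeR, the highest of 14 alternatives, the lowest 0.0128).

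Herpud1 encodes a membrane protein of the endoplasmic reticulum that takes part in the degradation of misfolded proteins and responds to ATF6 and XBP1 as well as ATF4. Its normalized counts were 238, 228 and 207 in wild type siGLO, 212, 189.5 and 257 in wild type siStag1, and 149, 119.7 and 152 in Stag1-/-. They were 262, 231 and 159 in Stag2-/- and 315, 168 and 166 in Stag2-/- siStag1. The 3 Stag1-/- libraries were the lowest of the 15. Herpud1 fell by 0.68 ± 0.24 (SE) on the log2 scale in Stag1-/- (adjusted p = 0.0679, edgeR), and in Stag2-/- the log2 fold change was -0.05 ± 0.23. The Stag1-/- call was lost without replicate 1 or 2 of either group, with adjusted p from 0.00997 to 0.196 over 14 alternatives (edgeR and DESeq2).

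Herpud1 lies on chromosome 8, whose genes were shifted downward in the knockout clones. The median log2 fold change over 709 tested genes of this chromosome was -0.19 in Stag1-/-, -0.20 in Stag2-/- and -0.22 in Stag2-/- siStag1. Of the 46 tested genes within 5 Mb of Herpud1, 14 fell and 2 rose in Stag1-/- (median -0.20), and 14 fell and 2 rose in Stag2-/- (median -0.10). The Stag1-/- values of these neighbours ran from -1.68 to 1.13, a range that holds the -0.68 of Herpud1, and the part of the chromosome in it was not tested. The 191 tested neighbours of Atf4 on chromosome 15 had medians of 0.03 in Stag1-/-, where 39 fell and 23 rose, and 0.01 in Stag2-/-, where 33 fell and 16 rose.

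**Figure D3:**
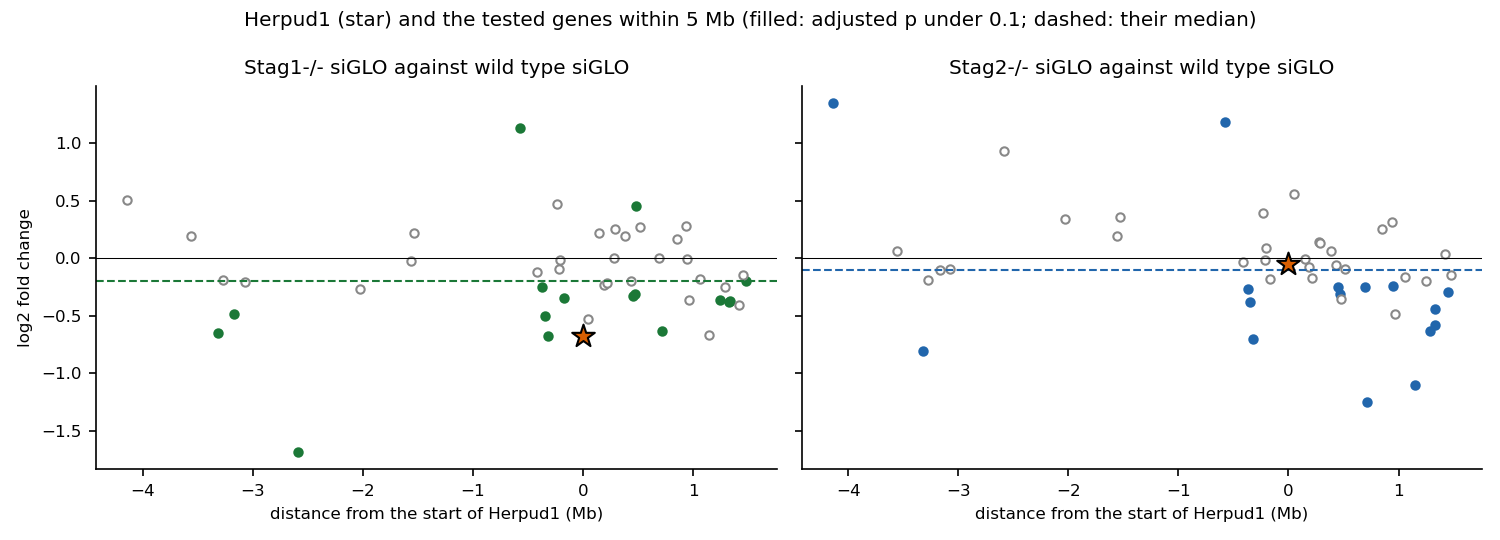
Log2 fold change against wild type siGLO (vertical axis) of Herpud1 (star) and the 46 tested genes within 5 Mb (points, filled for an adjusted p under 0.1) by distance from the start of Herpud1 in Mb. The dashed lines mark the neighbours' medians, -0.20 in Stag1-/- and -0.10 in Stag2-/-, and the star lies at -0.68 and -0.05.

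The knockouts were next compared directly. Between Stag1-/- and Stag2-/- cells 1 of 10 members was called, against 25.7% of all genes, and it was Herpud1, lower in Stag1-/- by 0.63 ± 0.24 (SE) on the log2 scale (log2 fold change -0.63, adjusted p = 0.0763, edgeR). The libraries of these groups did not overlap for Herpud1 alone (31.0% of all genes). This call was lost on leaving out any library but Stag2-/- replicate 3, with adjusted p from 0.0311 to 0.232 over 14 alternatives, and in the fit without the replicate 1 libraries no member was called (27.4% of all genes). The fit with the replicate block called 2 members (37.3% of all genes), the second being Asns, higher in Stag1-/- by 0.27 on the log2 scale (adjusted p = 0.05, edgeR).

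Within Stag2-/- cells, Stag1 knockdown lowered Asns and called no other member, 1 of 10 against 6.37% of all genes (3.39% lower), and DESeq2 likewise called 1 (8.18%). Asns fell by 0.74 ± 0.15 (SE) on the log2 scale (adjusted p = 0.00887, edgeR), and its 3 siStag1 libraries lay below the 3 siGLO libraries (19.3% of all genes did not overlap). For Nupr1 the value was -1.17 ± 0.43 (adjusted p = 0.161, edgeR), and with the replicate block it was called too (adjusted p = 0.0505), making 2 members against 14.1% of all genes. Without the replicate 1 libraries the same 2 genes were called (8.69% of all genes). In a fit of only these 6 libraries no member was called (1.61% of all genes), and the adjusted p of Asns was 0.14 (edgeR).

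The effect of siStag1 differed between Stag2-/- and wild-type cells for 0 of the 10 genes by edgeR, against 0.159% of all genes (0.0207% higher and 0.138% lower). It was also 0 by DESeq2 (0.718%) and with the replicate block (0.951%). At an unadjusted p under 0.05 there was 1, Asns, whose change after siStag1 was -0.25 ± 0.15 (SE) in wild-type cells and -0.74 ± 0.15 in Stag2-/- cells, a difference of -0.49 ± 0.21 (adjusted p = 0.763, edgeR). On simulated data of this design, 111 of 200 genes with a 2-fold difference of effects were recovered, and no smaller difference was simulated.

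The wider pathway was read from 8 lists of genes. Of the eIF2α kinases, phosphatase subunits and their cofactors, 13 were tested, and 1 was called in Stag1-/-, 2 in Stag2-/- and 3 in Stag2-/- siStag1, against 20.0%, 28.3% and 43.9% of all genes. Oma1, the mitochondrial protease that relays stress to the kinase HRI, fell by 0.63 ± 0.12 (SE) in Stag1-/- (adjusted p = 0.0019, edgeR). In Stag2-/- cells Eif2ak3, the kinase PERK, fell by 0.28 ± 0.10 and Impact, an inhibitor of the kinase GCN2, rose by 0.47 ± 0.12. In Stag2-/- siStag1 Eif2ak2, the kinase PKR, fell by 0.49 ± 0.13 (adjusted p = 0.00742, edgeR), and 1 gene rose and 2 fell in all.

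Of 15 amino acid synthesis and one-carbon targets of ATF4, 5 fell and none rose in Stag2-/- (median log2 fold change -0.22), where 14.4% of all genes tested fell and 13.9% rose. In Stag2-/- siStag1 8 fell and 1 rose (median -0.53), where 21.3% of all genes fell and 22.6% rose. Cbs, which condenses serine with homocysteine, had normalized counts of 502, 522 and 457 in wild type siGLO, 381, 299.6 and 235 in Stag2-/-, and 277, 176 and 116 in Stag2-/- siStag1. Both Stag2-/- conditions lay below the controls, and Cbs fell by 0.69 ± 0.22 (SE; adjusted p = 0.0376, edgeR) and by 1.38 ± 0.23 (adjusted p = 0.000224, edgeR). The 1 gene that rose in Stag2-/- siStag1 was the mitochondrial folate enzyme gene Mthfd1l, by 0.35 ± 0.10. In Stag1-/- 2 rose and 1 fell, a share equal to the 20.0% of all genes called, the latter being the proline synthesis gene Pycr1 (-0.42 ± 0.09). Gpt2, an alanine aminotransferase gene, was the 1 gene of the list called after siStag1 in Stag2-/- cells, where it fell by 0.68 ± 0.17 (adjusted p = 0.0328, edgeR) and 6.37% of all genes were called.

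Of 12 amino acid transporter targets, 4 rose and none fell in Stag2-/- (median 0.44; 13.9% of all genes rose), and 5 rose and 1 fell in Stag2-/- siStag1 (median 0.37; 22.6% of all genes rose). Slc7a3, a cationic amino acid transporter gene, had normalized counts of 2871, 2125 and 1672 in wild type siGLO and of 4671, 3948 and 3617 in Stag2-/-, which do not overlap, and rose by 0.88 ± 0.17 (SE; adjusted p = 0.00225, edgeR). In Stag2-/- siStag1 Slc38a2, the neutral amino acid transporter SNAT2, rose by 0.65 ± 0.21 and Slc1a5, the glutamine carrier ASCT2, fell by 0.48 ± 0.15. Slc7a11 of this list lay under the mean level of 50 normalized counts set for naming genes. It was at 13.1, 2.03 and 5.81 in wild type siGLO, 56.1, 49.6 and 25.3 in Stag2-/-, and 107, 56.2 and 30.3 in Stag2-/- siStag1. In Stag1-/- only Slc43a1, a carrier of large neutral amino acids, was called, with a rise of 0.31 ± 0.11 (adjusted p = 0.0831, edgeR).

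**Figure D4:**
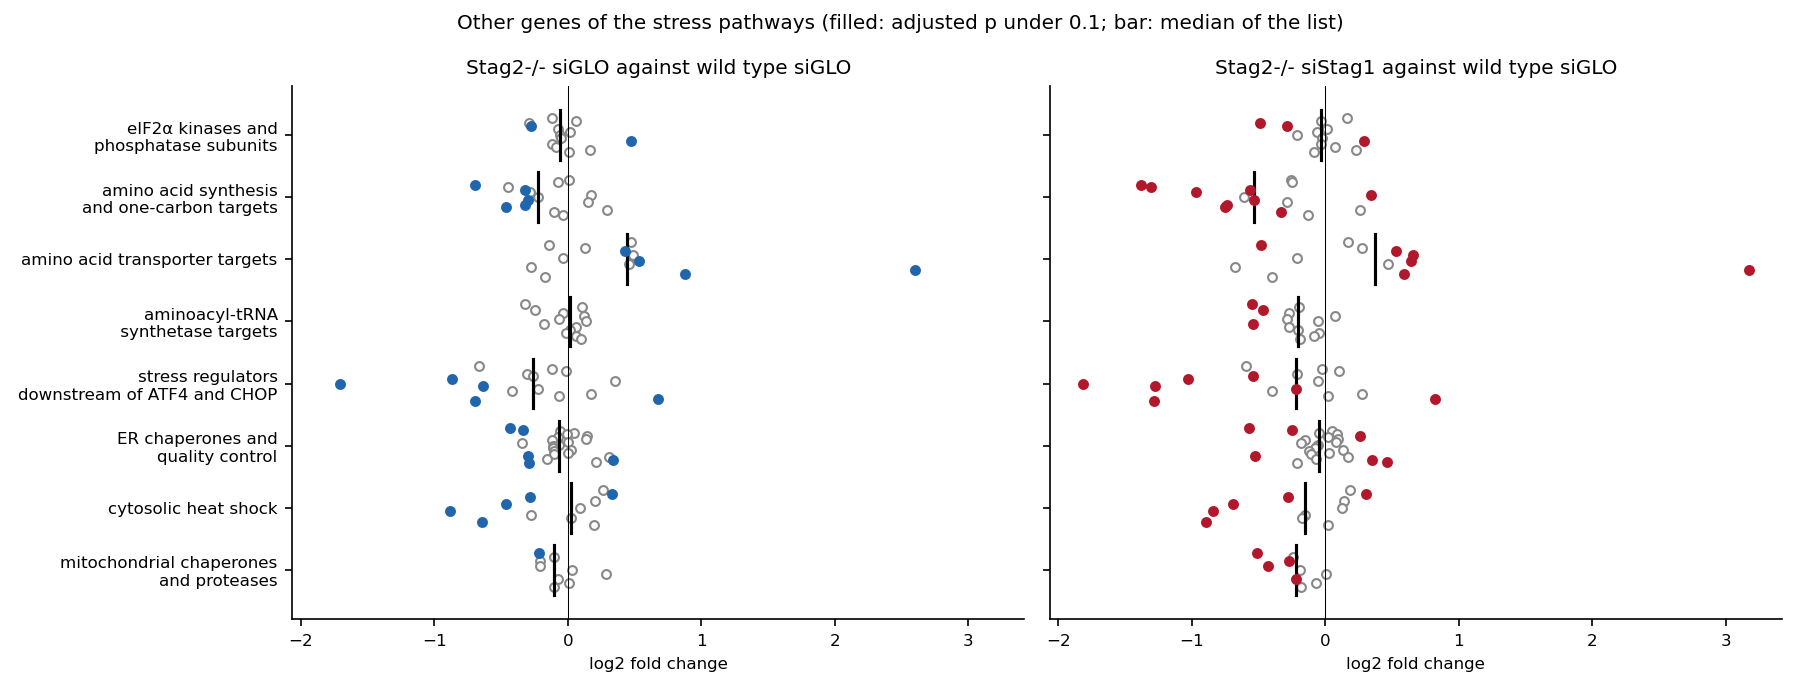
Log2 fold change against wild type siGLO (horizontal axis) of the genes of 8 stress pathway lists in Stag2-/- siGLO and Stag2-/- siStag1, with filled points for an adjusted p under 0.1 and bars for list medians. The synthesis and one-carbon list has medians of -0.22 and -0.53 and the transporter list 0.44 and 0.37.

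No aminoacyl-tRNA synthetase target of 13 was called in either single knockout. In Stag2-/- siStag1 3 fell and none rose (median -0.20), a share near the 21.3% of all genes that fell, with the largest fall in the alanyl-tRNA synthetase gene Aars, by 0.55 ± 0.21 (SE; adjusted p = 0.0548, edgeR). Among 15 tested stress regulators downstream of ATF4 and CHOP, 1 fell and 2 rose in Stag1-/-. In Stag2-/- 4 fell and 1 rose, and in Stag2-/- siStag1 6 fell and 1 rose. Calls in either direction were near those of all genes (20.0%, 28.3% and 43.9%). By direction, 14.4% of all genes fell and 13.9% rose in Stag2-/-, and 21.3% fell and 22.6% rose in Stag2-/- siStag1. In both Stag2-/- conditions falls thus made up a larger share of this list than of all genes. Gdf15, a secreted cytokine induced by CHOP and ATF4, was at 86.9, 91.5 and 145 normalized counts in wild type siGLO, and at 38.4, 35.1 and 51.5 in Stag1-/-, 49.7, 21.6 and 27.5 in Stag2-/- and 37.4, 23.9 and 30.3 in Stag2-/- siStag1. The knockout libraries all lay below the controls, with log2 fold changes of -1.37 ± 0.32, -1.71 ± 0.33 and -1.81 ± 0.33. Stc2, a secreted glycoprotein gene of the same list, rose in the same 3 conditions by 0.57 ± 0.22, 0.68 ± 0.22 and 0.82 ± 0.22.

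The other branches of the stress response were read from 3 lists. Of 24 endoplasmic reticulum chaperone and quality control genes, 3 fell in Stag1-/-, 4 fell and 1 rose in Stag2-/-, and 3 fell and 3 rose in Stag2-/- siStag1, against 20.0%, 28.3% and 43.9% of all genes called. The largest falls were those of Calr, a lectin chaperone gene, by 0.54 ± 0.08 (SE) in Stag1-/-, and of Atf6, the sensor of one branch, by 0.43 ± 0.14 in Stag2-/- and 0.57 ± 0.14 in Stag2-/- siStag1. The largest rises were Selk by 0.34 ± 0.11 in Stag2-/- and the ubiquitin ligase gene Syvn1 by 0.47 ± 0.13 in Stag2-/- siStag1. Of 11 cytosolic heat shock genes none was called in Stag1-/-, and 4 fell and 1 rose in both Stag2-/- conditions. Of all genes 28.3% and 43.9% were called there, the latter near the share of this list, and 14.4% and 21.3% fell. Hspb1, the small heat shock protein HSP27, fell by 0.64 ± 0.14 and 0.90 ± 0.14, and the co-chaperone gene Dnaja1 rose by 0.33 ± 0.10 and 0.30 ± 0.10. Of 9 mitochondrial chaperones and proteases 1 fell in Stag2-/- and 4 in Stag2-/- siStag1 (14.4% and 21.3% of all genes fell), led by the protease gene Afg3l2 at -0.21 ± 0.07 and -0.51 ± 0.07. After siStag1 in wild-type cells none of the genes of the 8 lists was called by edgeR. Several of these pathway calls were lost with fewer libraries. When each of 6 libraries was dropped in turn, the call held in 0 of the fits for Slc43a1, in 1 for Stc2 in Stag1-/-, in 2 for Atf6 in Stag2-/-, in 3 for Eif2ak3, Aars, Gpt2 and Afg3l2 in Stag2-/- or Stag2-/- siStag1, and in 4 for Cbs and Stc2 in Stag2-/-, whereas those of Oma1, Slc7a3, Gdf15 and Hspb1 held in all 6.

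Markers of cell state were called in the same comparisons. All 8 primitive endoderm markers were lower in Stag1-/- (median log2 fold change -3.44), Stag2-/- (-2.37) and Stag2-/- siStag1 (-2.16) and none was called in wild type siStag1. Their summed normalized counts were 17510 to 18100 in wild type siGLO, 16390 to 17250 in wild type siStag1, 2085 to 3039 in Stag1-/-, 2473 to 4263 in Stag2-/- and 2909 to 4256 in Stag2-/- siStag1, with no marker at 0. Of the 8 embryonic stem cell markers 1 fell in Stag1-/-, 3 in Stag2-/- and 6 in Stag2-/- siStag1, against 9.93%, 14.4% and 21.3% of all genes, and in the last of these Esrrb fell by 2.64 ± 0.15 (SE). The summed fibroblast markers were between 289 and 662 normalized counts in every library, only 4 of the 8 could be tested, and 2 of the 8 were at 0 in all wild type siGLO libraries. Of the 4 tested, Col3a1 was called higher in Stag2-/- (log2 fold change 2.10 ± 0.85, adjusted p = 0.0918, edgeR) and in Stag2-/- siStag1 (1.98 ± 0.85, adjusted p = 0.0807, edgeR), with replicate 1 the highest library of both. The part of these cell states in the falls of Asns, Nupr1, Ddit3 and Vldlr and in the rise of Cebpb was not tested, and in bulk RNA fewer cells of a type and less RNA per cell cannot be told apart.

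The members also varied between replicates of a condition, and several did so together. Of the 45 pairs of members, 10 had r over 0.8 when each library was taken as its deviation from the mean log2 level of its condition (15 libraries, which share the condition means and the replicate numbers). These 10 were all the pairs among Atf4, Trib3, Chac1, Nupr1 and Herpud1, with r from 0.831 for Atf4 with Nupr1 to 0.93 for Atf4 with Trib3. The share of all gene pairs with such an r was not computed, so the count does not set the members apart. For Nupr1, 5 genes that are not members had r of 0.941 to 0.959, above its highest r with a member, 0.889 for Trib3. Ddit3 did not follow, at 0.124 with Atf4 and 0.029 with Trib3, nor did Vldlr, at 0.155 and 0.112. Asns had r of 0.419 with Atf4 and Atf5 had 0.743. In both Stag2-/- conditions replicate 1 was the highest library for all 5 of these genes, and replicate 3 was the lowest apart from Nupr1 in Stag2-/- siGLO.

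**Figure D5:**
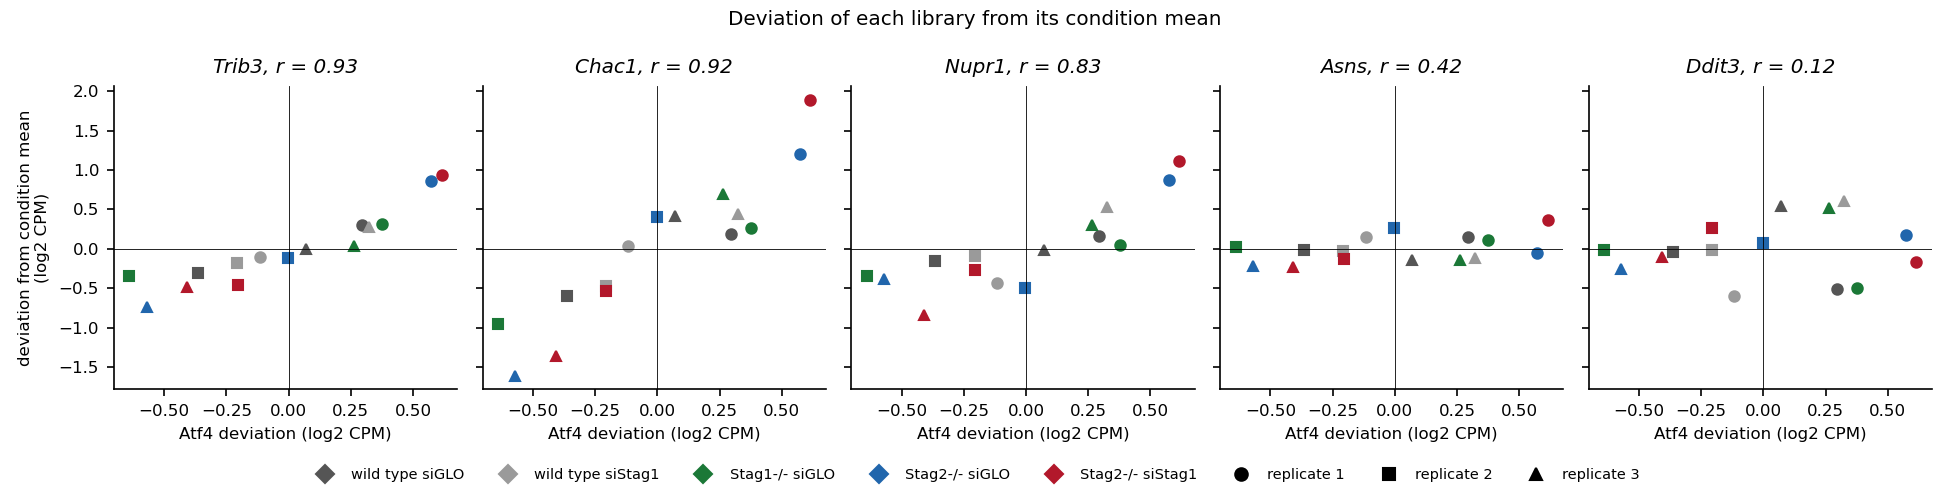
Deviation of each of 15 libraries from its condition mean (log2 CPM) for Atf4 (horizontal axis) against Trib3, Chac1, Nupr1, Asns and Ddit3 (vertical axis), coloured by condition and shaped by replicate number. Trib3, Chac1 and Nupr1 rise with Atf4 (r = 0.93, 0.92 and 0.83), whereas Asns and Ddit3 have r = 0.42 and 0.12.

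Part of this spread followed the replicate number across conditions. In an F test of the replicate number, chosen after seeing the data, 5 of 10 members were called (Atf4, Atf5, Ddit3, Trib3 and Asns), against 30.3% of all genes. Relative to replicate 1, Atf5 was lower by 0.60 and 0.64 on the log2 scale in replicates 2 and 3 (log2 differences -0.60 and -0.64, adjusted p = 0.00055, edgeR) and Trib3 by 0.80 and 0.65 (-0.80 and -0.65, adjusted p = 0.017, edgeR). Ddit3 went the other way, with differences of 0.37 and 0.65 (adjusted p = 0.0725, edgeR), and replicate 1 was its lowest library in 4 of the 5 conditions. Asns differed by -0.12 and -0.32 (adjusted p = 0.0225, edgeR), which is smaller than its fall in either Stag2-/- condition. What the replicate numbers stand for is not given in the labels.

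The genes most like a member over the 15 libraries are given for the 3 members with the widest range of condition means, as a description without a test. For Nupr1 they were Btbd19 (r = 0.948), Acp6, Mt2, Cldn5 and Rpap3 (0.898). For Asns they were Eif2s2, the gene of the β subunit of eIF2 (r = 0.976), M6pr, Cdk6, Anxa7 and Glipr2 (0.958). For Ddit3 they were Creld1 (r = 0.931), Tnfrsf10b, a death receptor gene, Dnajc4, Cox4i2 and Klhl2 (0.905). In deviations from condition means the lists became Taf15 (0.959), Pdhb, C1qbp, Fkbp1a and Acp6 for Nupr1, Fbxw11 (0.96), the serine synthesis genes Psat1 and Phgdh, Dnajc2 and Eif2b5 for Asns, and Tnfrsf10b (0.952), Rgs11, Klhl2, Sec61a2 and Vegfa for Ddit3. Acp6 stayed in both lists of Nupr1, and Tnfrsf10b and Klhl2 in both of Ddit3.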

How the data were processed

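Poly-A RNA of 15 cultures was sequenced, and the deposited values are counts of reads per gene that the authors made with STAR on mm10, per the labels and the methods. The counting tool, annotation and strand setting are not given in the sources used here. The 4 summary lines of each file, 19.8 to 23.4% of its total, were left out. Groups follow the labels. Counts were tested with edgeR 4.0.16 (R 4.3.3): filterByExpr (minimum count 10, minimum total 15), TMM scaling, 1 fit of the 5 conditions over 14508 genes, quasi-likelihood F tests for 7 comparisons and Benjamini-Hochberg adjustment, with calls at 0.1. No replicates were closer than sampling noise. Alternatives were DESeq2 1.42.0, other scalings and filters, fewer libraries and the replicate number as a block. Same-numbered libraries deviated together (every r over 0.1) for Stag1-/- against wild type siGLO (0.178 to 0.304), wild type siStag1 against siGLO, Stag1-/- against Stag2-/-, and siStag1 in Stag2-/- cells (0.276 to 0.71), so blocked calls are given there. On simulated data, 143 of 200 genes changed 2-fold were recovered for Stag2-/- against wild type siGLO, with 10 unchanged genes called. Positions come from GENCODE M21. Named pathway genes are the called gene of each list with the largest rise and fall where the mean level was 50 normalized counts or more, and similar genes are the 5 with the highest r. The members and lists were chosen with earlier results of these data known. One gene that this rule names is not reported here.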

Additional observations from a re-analysis of the deposited data

Results flagged for a closer look

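Several genes changed differently in the 2 knockout clones by the direct test of Stag1-/- against Stag2-/- (edgeR, adjusted over all genes). Of the 10 members it was Herpud1, lower in Stag1-/- (log2 fold change -0.63 ± 0.24 SE, adjusted p = 0.0763). Among the pathway genes with the largest difference in their list at a mean of at least 50 normalized counts, the mitochondrial protease gene Oma1 (-0.54 ± 0.12, adjusted p = 0.00507), the transporter gene Slc7a3 (-0.71 ± 0.17, adjusted p = 0.00921), the translocon subunit gene Sec61b (-0.55 ± 0.14, adjusted p = 0.0133) and Dnaja1 (-0.26 ± 0.10, adjusted p = 0.0683) were lower in Stag1-/- than in Stag2-/-. Those higher in Stag1-/- were the serine synthesis gene Phgdh (0.26 ± 0.09, adjusted p = 0.0473), the endoplasmic reticulum oxidase gene Ero1l (0.73 ± 0.22, adjusted p = 0.0302), Sdf2l1 (0.41 ± 0.12, adjusted p = 0.0268) and Hspb1 (0.81 ± 0.14, adjusted p = 0.00107). On leaving out 1 library at a time the call held in 1 of 6 fits for Herpud1, in 2 for Phgdh and Dnaja1, in 4 for Ero1l and in 5 for Sdf2l1, and it held in all 6 for Oma1, Slc7a3, Sec61b and Hspb1.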

How the results depend on the processing

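The 70 fold changes of the 10 genes kept their direction and their side of the threshold under DESeq2, under DESeq2 size factors and under both other filters on low counts. The number of members called moved by over 1.5 times in these cases. At an adjusted p under 0.05 it was 1 for Stag1-/- (14.1% of all genes), 1 for Stag2-/- (20.1%) and 0 for Stag1-/- against Stag2-/- (18.1%). With the replicate block, which pairs same-numbered cultures, it was 4 for Stag1-/-, 2 for Stag1-/- against Stag2-/- and 2 for siStag1 in Stag2-/- cells, and the block lost no call. With only the libraries compared it was 5 for Stag1-/- (20.5% of all genes in that fit) and 0 for siStag1 in Stag2-/- cells (1.61%). With only replicates 2 and 3, chosen after seeing the data, it was 4 for Stag2-/-, 0 for Stag1-/- against Stag2-/- and 2 for siStag1 in Stag2-/- cells. On leaving out 1 library it ran from 0 to 3 for Stag1-/-, from 1 to 3 for Stag2-/-, from 0 to 1 for Stag1-/- against Stag2-/- and from 1 to 2 for siStag1 in Stag2-/- cells. The cause was not tested. Same-numbered cultures did not all deviate together for Stag2-/- (lowest r 0.0838) and Stag2-/- siStag1 (0.032) against wild type siGLO, and 3 and 5 members were called there with the block.

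Log2 fold changes that reversed were never called values. With only replicates 2 and 3 they were -0.0201 for Trib3 and -0.33 for Chac1 in Stag2-/-, 0.13 for Atf4, 0.0331 for Trib3 and 0.0349 for Herpud1 in wild type siStag1, and -0.20 for Atf4, 0.0113 for Atf5, -0.20 for Trib3 and -1.31 for Chac1 in Stag2-/- siStag1. For Stag1-/- against Stag2-/- they were 0.17 for Trib3, -0.0540 for Cebpb and 0.0083 for Nupr1, and for the difference of siStag1 effects -0.20 for Atf5, -0.21 for Trib3, -0.76 for Chac1 and -0.26 for Herpud1. With the replicate block they were -0.0284 for Chac1 in Stag2-/- siStag1 and, for the difference, -0.0030 for Atf5, -0.0010 for Chac1 and -0.0074 for Herpud1. With library size alone Herpud1 was at 0.0082 for siStag1 in Stag2-/- cells.

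On leaving out 1 library at a time, the following log2 fold changes reversed in at least 1 fit, and their lowest and highest values are given. For Stag1-/- they ran from -0.25 to 0.19 for Atf4, -0.17 to 0.40 for Atf5 and -0.0055 to 0.33 for Trib3. For Stag2-/- they ran from -0.0866 to 0.49 for Atf4, -0.17 to 0.68 for Trib3, -0.38 to 0.78 for Chac1 and -0.20 to 0.14 for Herpud1. For wild type siStag1 they ran from -0.26 to 0.0704 for Atf4, -0.49 to 0.0156 for Atf5, -0.52 to 0.16 for Ddit3 and -0.16 to 0.0661 for Herpud1. For Stag2-/- siStag1 they ran from -0.34 to 0.23 for Atf4, -0.31 to 0.28 for Atf5, -0.35 to 0.54 for Trib3, -1.36 to 0.71 for Chac1 and -0.43 to 0.11 for Herpud1. For Stag1-/- against Stag2-/- they ran from -0.56 to 0.0167 for Atf4, -0.40 to 0.0322 for Atf5, -0.23 to 0.29 for Ddit3, -0.52 to 0.33 for Trib3, -0.0877 to 0.47 for Cebpb, -0.81 to 0.0095 for Nupr1 and -0.46 to 0.0673 for Vldlr. For siStag1 in Stag2-/- cells they ran from -0.59 to 0.12 for Atf4, -0.73 to 0.46 for Trib3, -1.67 to 0.62 for Chac1 and -0.38 to 0.15 for Herpud1. For the difference of siStag1 effects they ran from -0.50 to 0.21 for Atf4, -0.29 to 0.24 for Atf5, -0.54 to 0.15 for Ddit3, -0.55 to 0.65 for Trib3, -1.38 to 0.91 for Chac1, -0.29 to 0.0443 for Cebpb and -0.35 to 0.18 for Herpud1.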
